A study of Mus musculus with 16 samples.

Results

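The collagen genes were studied in mouse kidney 24 h after unilateral ureteral obstruction (UUO), the ligation of one ureter, which injures the kidney behind it. Members were the rows of the deposited table whose symbol begins with COL, a number, A and a number, which gave 37 of 18132 genes. One of them, Col4a3bp, encodes a ceramide transfer protein and no collagen, and it was set aside (log2 difference after UUO -0.02 in wildtype and 0.07 in IL-33-deficient kidneys). The other 36 encode collagen chains: 11 of fibrillar collagens, 8 of basement membrane collagens (the 6 type IV chains, Col15a1 and Col18a1) and 17 of other collagens.

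Kidney RNA was hybridized to Illumina MouseRef-8 v2 BeadChips, on which the brightness of a probe follows the amount of its transcript, with 1 array per kidney and 16 arrays in all. Wildtype (WT) kidneys comprised 2 untreated controls and 7 obstructed kidneys, and IL-33-deficient kidneys comprised 2 untreated controls and 5 obstructed kidneys. Both genotypes were on the C57BL/6J BomTac background, to which the Il33-deficient line had been backcrossed, and the mice were 8 weeks old unless stated otherwise in the methods. The obstructed kidneys came from 2 sets of mice, set 1 providing 3 WT and 2 deficient kidneys, and set 2 providing 4 WT and 3 deficient kidneys. The labels give no set for the controls, which had no sham operation, so obstruction cannot be told apart from surgery or from a set of the controls' own. The methods describe the deficient line without naming a cell type or promoter to which the loss would be limited.

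Collagens are triple helices of 3 chains that are secreted and assembled outside the cell. Fibrillar collagens such as types I and III form the fibers of the interstitium and accumulate in renal fibrosis, where fibroblasts and myofibroblasts are their known source. Type IV collagen forms the network of basement membranes, with the chains encoded by Col4a1 and Col4a2 in most of them and the chains encoded by Col4a3, Col4a4 and Col4a5 in the mature glomerular basement membrane and parts of the tubule.

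Levels are given as log2 intensity, and differences as log2 differences with the standard error (SE) of limma. Levels of different genes come from different probes and were not compared. The median gene lay at 7.05, and 19 of the 36 collagens had a mean above it, while the other 17 were dim. The lowest intensity of the table, 95.5, is background, so that differences of dim genes are compressed. In whole kidney RNA, fewer cells of a type and less RNA per cell cannot be told apart.

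Il33 followed the labels: it lay between 8.39 and 9.57 in WT kidneys after UUO and between 7.62 and 8.02 in WT controls, against 6.80 to 7.02 and 6.85 to 6.88 in IL-33-deficient kidneys. The deposited table does not tell which part of Il33 the probe reads. Of the WT kidneys after UUO, number 3820 stood apart. Its level of Havcr1, an injury marker of the proximal tubule, was 10.42, against 12.84 to 13.95 in the other WT kidneys after UUO and 7.22 to 7.24 in WT controls. Over the 7 collagens that rose in both genotypes it was the lowest of its group for 7 of 7, with a median of 0.27 above the WT control mean, against 0.83 to 1.17 in the other WT kidneys. It was kept, and the calls and the differences between genotypes after UUO that change without it are also given without it.

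UUO was first compared with control in each genotype. In WT kidneys 10 of 36 collagens passed an adjusted p of 0.05 in limma, 7 higher and 3 lower, against 15.2% of all genes (6.97% higher and 8.22% lower). In IL-33-deficient kidneys 13 of 36 passed, 9 higher and 4 lower, against 21.8% of all genes (10.6% higher and 11.2% lower). The median difference of the 36 was 0.01 in WT and 0.02 in IL-33-deficient kidneys, next to -0.000759 and -0.000570 over all genes. The medians lay near 0, and the calls fell on a few chains. Of the basement membrane collagens 6 of 8 passed in each genotype, of the fibrillar collagens 3 of 11 in WT and 5 of 11 in IL-33-deficient kidneys, and of the other collagens 1 of 17 and 2 of 17. The classes differ in brightness: only Col4a6 of the basement membrane chains was dim, as were most of the other collagens. With genes above the median gene alone, 33% of genes and 10 collagens passed in WT. In IL-33-deficient kidneys 44.4% of genes and 12 collagens did.

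A set of 9 collagens passed in both genotypes with the same direction, against 13.0% of all genes. Col1a1, Col3a1, Col5a1, Col4a1, Col4a2, Col18a1 and Col16a1 rose, and Col4a3 and Col4a4 fell. Col4a5 passed in WT kidneys and not in IL-33-deficient ones, and Col1a2, Col15a1, Col27a1 and Col23a1 in IL-33-deficient kidneys and not in WT ones. Without regard to any test, the obstructed kidneys all lay above their controls for 7 of 36 collagens and all below for 6 in WT (10.2% and 11.2% of all genes), and for 10 and 5 in IL-33-deficient kidneys (17.5% each). Each response has its own pair of controls, and the differences between the genotypes in the response are tested further on.

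**Figure D1:**
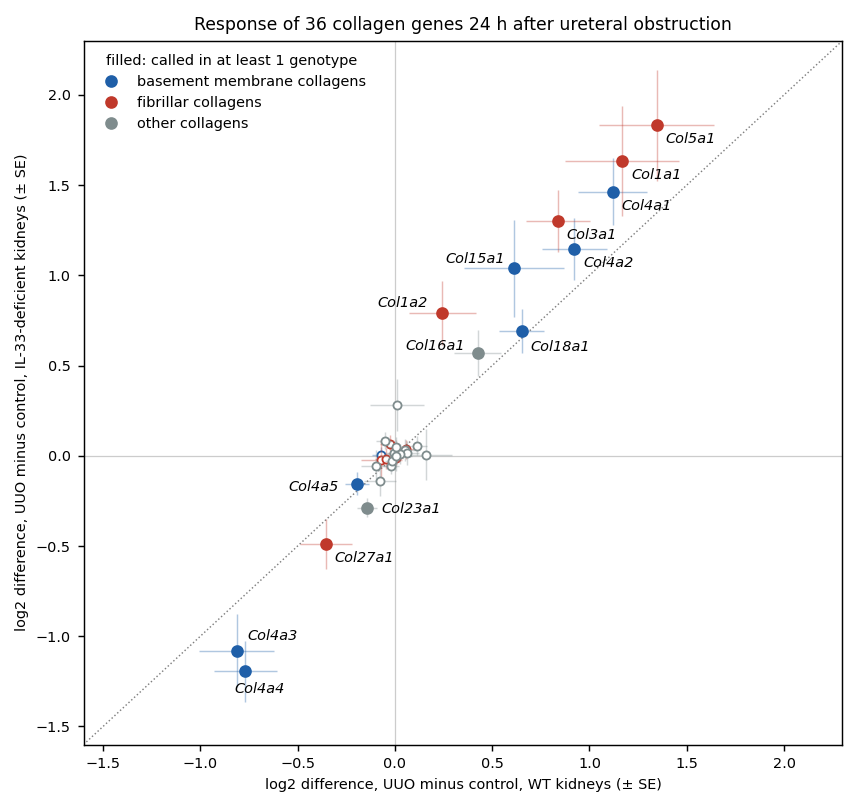
Log2 difference of UUO minus control (± SE) for the 36 collagens in WT kidneys (x axis) and IL-33-deficient kidneys (y axis), colored by class, with filled points for the 14 called in at least 1 genotype and a dotted line of equal responses. Most collagens sit near 0 in both, with Col5a1 farthest up at 1.35 and 1.83 and Col4a3 and Col4a4 farthest down.

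Of the fibrillar collagens, Col1a1, Col3a1 and Col5a1 rose in both genotypes and Col1a2 in IL-33-deficient kidneys. Col1a1 encodes the major chain of type I collagen, the main fiber of scar tissue. It lay at 7.38 and 7.53 in WT controls and rose to a lowest, median and highest level of 7.73, 8.63 and 9.32 after UUO. In IL-33-deficient controls it lay at 7.44 and 8.13, and after UUO at 9.08, 9.15, 9.49, 9.61 and 9.77. No obstructed kidney overlapped the controls of its genotype. The difference was 1.17 in WT (SE 0.29, limma adjusted p 0.014), a 2.25-fold rise, and 1.63 in IL-33-deficient kidneys (SE 0.31, adjusted p 0.00123), a 3.10-fold rise.

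Col3a1, the chain of type III collagen, which forms fine fibers together with type I, had controls close to one another in each genotype, at 6.97 and 6.99 in WT and at 7.03 and 7.06 in IL-33-deficient kidneys. After UUO it lay at 7.25, 7.94 and 8.04 in WT kidneys (lowest, median, highest) and at 8.09, 8.30, 8.32, 8.36 and 8.65 in IL-33-deficient ones. Every obstructed kidney was above every control. Col3a1 rose by 0.84 in WT (SE 0.16, limma adjusted p 0.00334) and by 1.301 in IL-33-deficient kidneys (SE 0.17, adjusted p 9.89e-05). Its controls were near background, and with the lowest intensity subtracted from all values the same rises of Col3a1 were 1.62 and 2.22.

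The strongest rise of a collagen was that of Col5a1, which encodes a chain of type V collagen, a minor collagen inside type I fibers that governs how they start. In WT it lay at 7.75 and 7.77 in controls and at 7.95, 9.28 and 9.61 after UUO (lowest, median, highest). In IL-33-deficient kidneys it lay at 7.75 and 7.87 in controls and at 9.32, 9.60, 9.69, 9.73 and 9.86 after UUO. The groups did not overlap, although WT kidney 3820, the lowest, was close to the controls. Col5a1 rose 2.54-fold in WT (1.35, SE 0.30, limma adjusted p 0.00659) and 3.56-fold in IL-33-deficient kidneys (1.83, SE 0.31, adjusted p 0.000576). With the lowest intensity subtracted, the rises of Col5a1 were 1.76 in WT and 2.31 in IL-33-deficient kidneys. They then lay close to those of Col1a1 (1.69 and 2.13) and Col3a1 (1.62 and 2.22).

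Col1a2 encodes the second chain of type I collagen, which pairs with the product of Col1a1. It lay at 7.27 and 7.32 in WT controls and at 7.06, 7.60 and 7.83 in WT kidneys after UUO (lowest, median, highest), so that the WT groups overlapped. IL-33-deficient controls were at 7.09 and 7.42, and obstructed kidneys at 7.79, 7.90, 8.04, 8.07 and 8.42, all above both controls. The difference was 0.24 in WT (SE 0.17, limma adjusted p 0.438) and 0.79 in IL-33-deficient kidneys (SE 0.18, adjusted p 0.00454). Over the WT kidneys of set 2 alone, Col1a2 rose by 0.40 (limma adjusted p 0.0123), and over those of set 1 alone, which include kidney 3820, the difference was 0.03 (adjusted p 0.964). Without the IL-33-deficient control 3813 the rise in IL-33-deficient kidneys no longer passed.

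Of the remaining fibrillar collagens Col27a1, known from cartilage, had lower values after UUO. It lay at 7.42 and 7.67 in WT controls and at 6.96, 7.12 and 7.67 after UUO (lowest, median, highest), and its highest WT value after UUO was that of kidney 3820. In IL-33-deficient kidneys it lay at 7.40 and 7.67 in controls and at 6.98, 6.98, 6.99, 7.12 and 7.18 after UUO, below both controls. It fell by 0.49 in IL-33-deficient kidneys (SE 0.14, limma adjusted p 0.0203), a call lost without control 3814, and the WT difference was -0.35 (SE 0.13, adjusted p 0.097). Without kidney 3820 Col27a1 passed in WT too, at -0.43 (limma adjusted p 0.00173). The other 6 fibrillar chains measured (Col2a1, Col5a2, Col5a3, Col11a1, Col11a2 and Col24a1) passed in neither genotype. Of these Col5a2, a partner of the Col5a1 chain in type V collagen, was not above the median gene, at a difference of 0.06 in WT and 0.04 in IL-33-deficient kidneys. Col3a1 and Col5a2 are neighbors on chromosome 1 with no protein-coding gene between them.

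**Figure D2:**
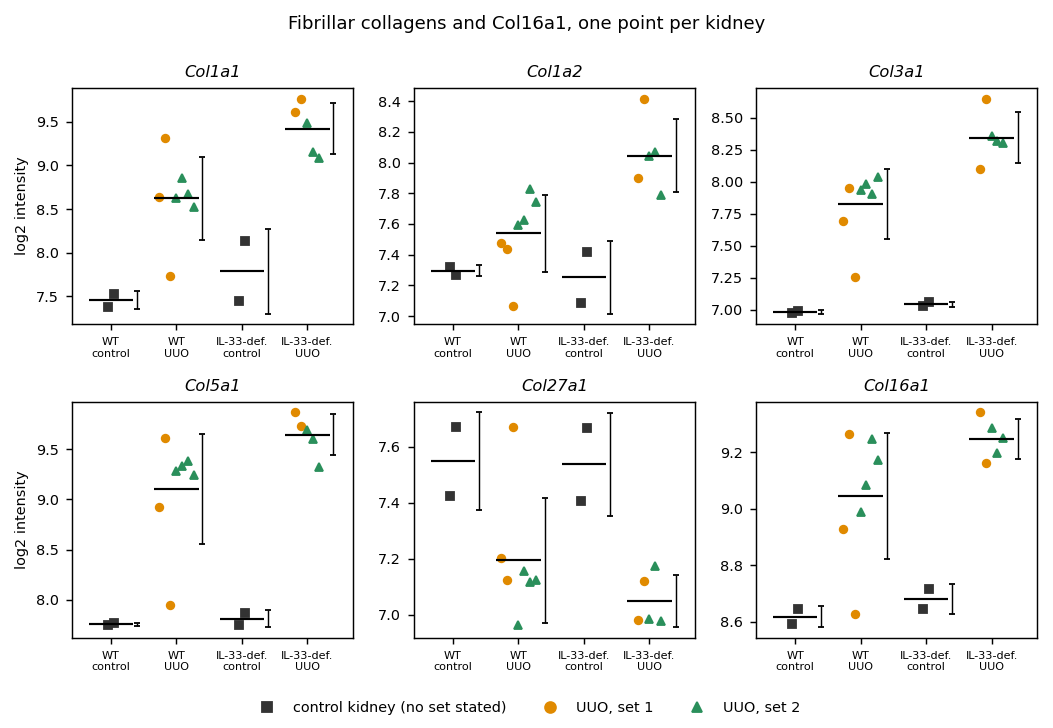
Log2 intensity of the 5 fibrillar collagens called in a response to UUO and of Col16a1, one point per kidney in the 4 groups, with the group mean (line) and SD (bar) and with the set of mice marked for obstructed kidneys. For Col3a1 all obstructed kidneys lie above all controls, and the IL-33-deficient ones lie above all WT ones.

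The sequences before the starts of fibrillar genes that rose in IL-33-deficient kidneys are shown to set their unlike promoters side by side. Of these genes Col1a2 did not pass in WT kidneys. RefSeq promoters of the mouse assembly GRCm38.p6 were at hand for 29 of the 36 collagens, in 32 windows, and for neither Col1a1 nor Col4a3. Each sequence below runs 5′ to 3′ on the + strand up to the annotated start of the gene, and capitals mark GGGCGG (the core of the GC box), CCAAT or TATAAA read on either strand. The Col5a1 sequence has 206 bases because its window in the promoter table reaches past that start, and the bases inside the gene were left out. The windows are chr1:45311288-45311537 for Col3a1, chr2:27886175-27886380 for Col5a1 and chr6:4505368-4505617 for Col1a2.
Col3a1: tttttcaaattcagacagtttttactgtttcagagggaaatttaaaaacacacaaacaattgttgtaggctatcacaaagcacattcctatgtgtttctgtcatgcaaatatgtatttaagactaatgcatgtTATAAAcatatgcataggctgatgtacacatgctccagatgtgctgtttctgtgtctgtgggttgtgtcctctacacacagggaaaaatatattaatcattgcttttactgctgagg
Col5a1: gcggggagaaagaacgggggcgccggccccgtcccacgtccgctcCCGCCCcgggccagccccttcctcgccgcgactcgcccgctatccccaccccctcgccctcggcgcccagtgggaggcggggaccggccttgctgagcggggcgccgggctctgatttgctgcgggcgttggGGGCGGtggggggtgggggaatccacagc
Col1a2: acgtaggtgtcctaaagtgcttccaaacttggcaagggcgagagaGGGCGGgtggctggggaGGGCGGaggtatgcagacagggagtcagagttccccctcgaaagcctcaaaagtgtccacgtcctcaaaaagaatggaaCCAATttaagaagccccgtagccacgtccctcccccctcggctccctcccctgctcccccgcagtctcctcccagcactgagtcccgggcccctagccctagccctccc

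Over these bases the GC content was 35.2% for Col3a1, 77.7% for Col5a1 and 62.0% for Col1a2, and the median of all promoters was 52.4% over 250 bases. The Col3a1 window held 1 TATAAA and no GGGCGG or CCAAT. The Col5a1 window held 2 GGGCGG, and that of Col1a2 held 2 GGGCGG and 1 CCAAT. Of 32851 promoters 32.7% held GGGCGG in the 250 bases before the start, 33.8% CCAAT and 12.4% TATAAA on either strand, and of the 32 collagen windows 18, 12 and 5 did. TGANTCA, the AP-1 type of site, was in 6.75% of all and in 1 of the 32 collagen windows. The windows of Col4a1 and Col4a2 share bases, since these genes are transcribed away from each other from a common stretch. These are matches of letters and no measured sites.

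The type IV chains moved in opposite directions. Col4a1 and Col4a2, whose chains form the ubiquitous type IV network, rose in every obstructed kidney. Col4a1 lay at 10.94 and 11.23 in WT controls and at 11.53, 12.29 and 12.50 after UUO (lowest, median, highest). In IL-33-deficient kidneys it lay at 11.02 and 11.12 in controls and at 12.46, 12.48, 12.56, 12.56 and 12.60 after UUO. The obstructed IL-33-deficient kidneys fell in a narrow band well above their controls, and the lowest WT kidney was again 3820. The rise of Col4a1 was 1.12 in WT (SE 0.18, limma adjusted p 0.000938), 2.17-fold, and 1.46 in IL-33-deficient kidneys (SE 0.19, adjusted p 8.1e-05), 2.76-fold.

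Col4a2 followed with controls at 10.20 and 10.23 in WT and at 10.22 and 10.40 in IL-33-deficient kidneys. After UUO its lowest, median and highest WT levels were 10.53, 11.24 and 11.46, and the IL-33-deficient levels were 11.31, 11.41, 11.47, 11.54 and 11.55. No obstructed kidney overlapped its controls. Col4a2 rose 1.89-fold in WT (0.92, SE 0.17, limma adjusted p 0.0019) and 2.21-fold in IL-33-deficient kidneys (1.15, SE 0.17, adjusted p 0.000262). When either WT control was left out, Col4a1 and Col4a2 still passed in WT kidneys.

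Col4a3 and Col4a4, whose chains are assembled with that of Col4a5 into the glomerular network, fell. Col4a3 lay at 9.57 and 9.66 in WT controls and at 8.48, 8.75 and 9.54 after UUO (lowest, median, highest). In IL-33-deficient kidneys it lay at 9.31 and 9.49 in controls and at 8.18, 8.30, 8.36, 8.37 and 8.39 after UUO. Every obstructed kidney was below its controls, WT kidney 3820 only just. The level fell by 0.81 in WT (SE 0.19, limma adjusted p 0.00999), 1.76-fold lower, and by 1.08 in IL-33-deficient kidneys (SE 0.20, adjusted p 0.00116), 2.11-fold lower.

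For Col4a4 the WT controls were at 9.07 and 9.18 and the WT kidneys after UUO at 8.06, 8.29 and 8.94 (lowest, median, highest). The IL-33-deficient controls were at 9.13 and 9.55, and the obstructed kidneys at 8.07, 8.13, 8.15, 8.17 and 8.23. Again no obstructed kidney reached its controls. Col4a4 fell by 0.77 in WT (SE 0.16, limma adjusted p 0.00501) and by 1.19 in IL-33-deficient kidneys (SE 0.17, adjusted p 0.000161), 1.70-fold and 2.29-fold lower.

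The genes lie in head-to-head pairs on their chromosomes with no protein-coding gene between them, Col4a1 with Col4a2 on chromosome 8, Col4a3 with Col4a4 on chromosome 1 and Col4a5 with Col4a6 on chromosome X. Both members of the first pair rose and both of the second fell. Col4a5 of the third lay at 7.81 and 7.91 in WT controls, at 7.54, 7.68 and 7.79 after UUO (lowest, median, highest), at 7.70 and 7.75 in IL-33-deficient controls and at 7.50, 7.54, 7.54, 7.62 and 7.64 after UUO. Obstructed kidneys were below their controls in both genotypes, by little. It fell by 0.19 in WT (SE 0.06, limma adjusted p 0.0386) and the IL-33-deficient difference was -0.15 (SE 0.06, adjusted p 0.0981). The WT call of Col4a5 was lost when any of 5 arrays was left out (3811, 3812, 3819, 3892 or 3895). Col4a6, its neighbor, was not above the median gene and differed by -0.07 in WT and by 0.003 in IL-33-deficient kidneys.

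Tubular markers moved beside the type IV chains. The 4 markers of the distal tubule and collecting duct summed to between 19664 and 21990 in WT controls and 7974 and 19530 after UUO, and in IL-33-deficient kidneys to between 17026 and 20414 in controls and 9956 and 13741 after UUO. Of them 3 passed as lower in WT and 2 in IL-33-deficient kidneys, against 8.22% and 11.2% of all genes. The 4 measured proximal tubule markers summed to between 29296 and 30146 in WT controls and 11751 and 28501 after UUO, and in IL-33-deficient kidneys to between 31034 and 31048 in controls and 7526 and 16323 after UUO, with 0 called in WT and 3 called lower in IL-33-deficient kidneys. The part of these cells in the falls of Col4a3 and Col4a4 was not tested.

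**Figure D3:**
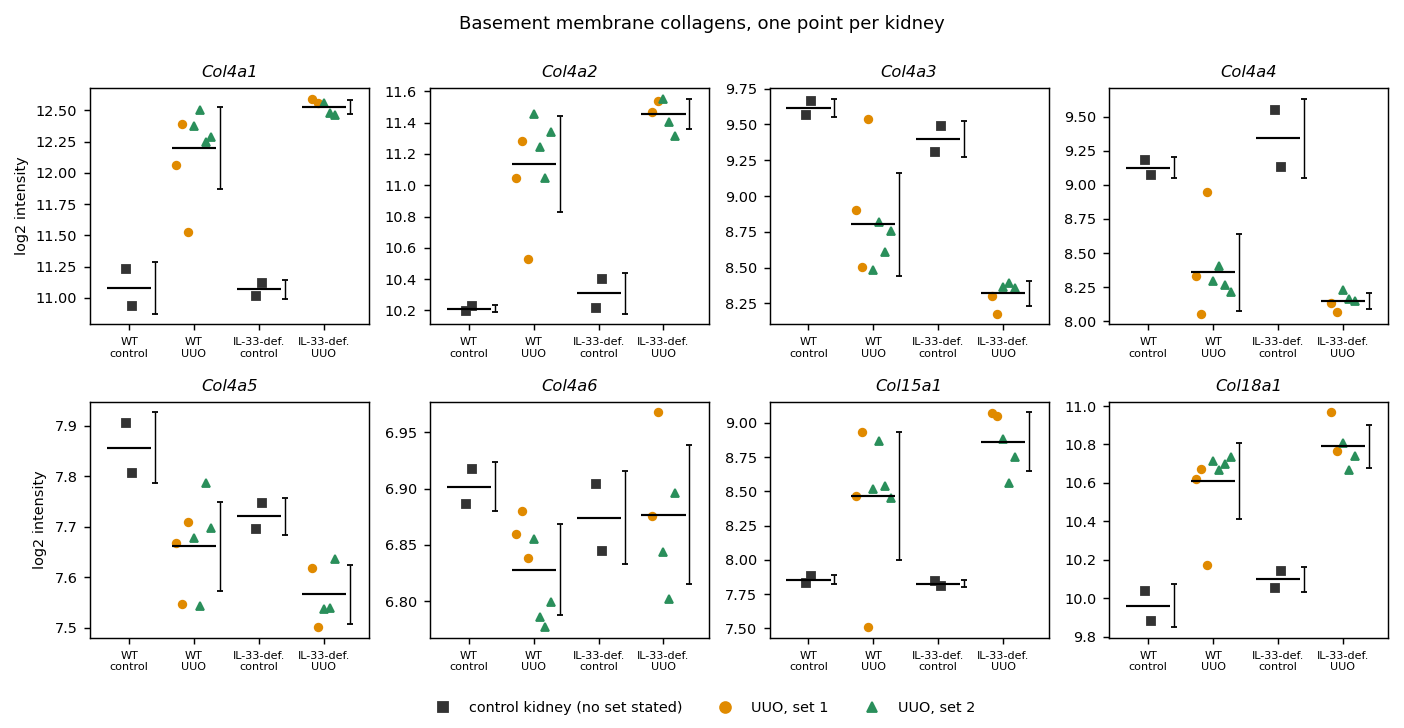
Log2 intensity of the 8 basement membrane collagens, one point per kidney in the 4 groups, with the group mean (line) and SD (bar) and with the set of mice marked for obstructed kidneys. Col4a1, Col4a2 and Col18a1 lie higher and Col4a3 and Col4a4 lower in all obstructed kidneys than in their controls. For each of these genes the WT point of set 1 nearest the controls is kidney 3820.

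Col15a1 and Col18a1 encode related basement membrane collagens that carry heparan or chondroitin sulfate chains and release endostatin-like fragments from their ends. Col18a1 lay at 9.88 and 10.04 in WT controls and at 10.17, 10.67 and 10.73 after UUO (lowest, median, highest), and in IL-33-deficient kidneys at 10.05 and 10.14 in controls and at 10.67, 10.74, 10.77, 10.81 and 10.97 after UUO. The groups did not overlap in either genotype. Col18a1 rose by 0.65 in WT (SE 0.12, limma adjusted p 0.00189) and by 0.69 in IL-33-deficient kidneys (SE 0.12, adjusted p 0.000815), nearly the same amount.

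Col15a1 had WT controls at 7.83 and 7.88 and WT kidneys after UUO at 7.51, 8.52 and 8.93 (lowest, median, highest). IL-33-deficient controls were at 7.81 and 7.84 and obstructed kidneys at 8.56, 8.75, 8.88, 9.05 and 9.07. Among WT kidneys, 3820 alone lay below the controls. The difference was 0.61 in WT (SE 0.26, limma adjusted p 0.137) and 1.04 in IL-33-deficient kidneys (SE 0.27, adjusted p 0.0107), 2.05-fold. Without kidney 3820 Col15a1 rose by 0.77 in WT (limma adjusted p 0.00118), and without either IL-33-deficient control its rise in that genotype no longer passed.

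The other 17 collagens were mostly quiet. Col16a1, a fibril-associated collagen, lay at 8.59 and 8.64 in WT controls and at 8.63, 9.08 and 9.26 after UUO (lowest, median, highest), with kidney 3820 between the controls. In IL-33-deficient kidneys it lay at 8.64 and 8.72 in controls and at 9.16, 9.20, 9.25, 9.29 and 9.34 after UUO. It rose 1.34-fold in WT (0.43, SE 0.12, limma adjusted p 0.0281) and 1.48-fold in IL-33-deficient kidneys (0.57, SE 0.13, adjusted p 0.00427). Col23a1, a transmembrane collagen and dim on these arrays, lay at 6.999 and 7.05 in WT controls, at 6.78, 6.88 and 6.96 in WT kidneys after UUO (lowest, median, highest), at 7.07 and 7.15 in IL-33-deficient controls and at 6.75, 6.77, 6.83, 6.85 and 6.89 after UUO. All its obstructed kidneys were below their controls, and it fell by 0.29 in IL-33-deficient kidneys (SE 0.05, limma adjusted p 0.00101), with a WT difference of -0.14 (SE 0.05, adjusted p 0.0698). Without kidney 3820 Col23a1 passed in WT as well, at -0.16 (limma adjusted p 0.0368).

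Among collagens that passed in neither genotype were 6 above the median gene, Col5a3, Col6a1, Col6a2, Col11a2, Col12a1 and Col14a1. Col6a1 encodes a chain of type VI collagen, which forms beaded filaments around cells. It lay at 7.95 and 8.11 in WT controls and at 7.83, 7.96 and 8.33 after UUO (lowest, median, highest), and in IL-33-deficient kidneys at 7.94 and 8.05 in controls and at 8.05, 8.11, 8.30, 8.43 and 8.50 after UUO. The groups overlapped in both genotypes, at a difference of 0.01 (SE 0.14, limma adjusted p 0.983) and 0.28 (SE 0.14, adjusted p 0.215). Col6a2, its neighbor on chromosome 10, differed by -0.09 and by -0.05.

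The WT counts depended on the control pair. Without WT control 3811 4 collagens passed (Col4a1, Col4a2, Col3a1 and Col18a1; 5.80% of all genes), without WT control 3812 only 2 did (Col4a1 and Col4a2; 4.46%), and with the obstructed WT kidneys of set 1 alone 0 did (1.04%). When any array was left out, the count in IL-33-deficient kidneys stayed between 10 and 13: Col1a2, Col15a1 and Col16a1 no longer passed without control 3813, and Col15a1 and Col27a1 without control 3814.

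The genes of collagen synthesis were then examined in the same comparisons, in the order in which a chain meets them. Of 23 listed genes of biosynthesis and secretion 21 were measured, and 3 rose and 3 fell in WT while 7 rose and 2 fell in IL-33-deficient kidneys (median difference 0.11 and 0.04). Serpinh1, the collagen chaperone HSP47, rose by 0.75 in WT (SE 0.23, limma adjusted p 0.0406) and by 1.11 in IL-33-deficient kidneys (SE 0.24, adjusted p 0.00356). Plod3, a lysyl hydroxylase, rose by 0.69 and 0.98, and Colgalt1, which adds galactose to hydroxylysine, by 0.81 and 0.91. Sec24d, of the vesicle coat that exports procollagen, rose by 0.48 in IL-33-deficient kidneys and had a WT difference of 0.30 (adjusted p 0.163), and Fkbp10, a folding enzyme, rose by 0.36 there against 0.32 in WT (adjusted p 0.080). P4ha1, the catalytic subunit of prolyl 4-hydroxylase, fell by 0.50 in WT (SE 0.14, adjusted p 0.0221) and had a difference of -0.33 in IL-33-deficient kidneys (adjusted p 0.123).

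Of 14 listed genes of maturation and cross-linking 12 were measured. A rise passed for 3 in WT and 4 in IL-33-deficient kidneys, against 6.97% and 10.6% of all genes. In either genotype 0 passed as lower, against 8.22% and 11.2% of all genes. Adamts2, which removes the amino-terminal propeptide of procollagen, rose by 0.45 in WT and 0.78 in IL-33-deficient kidneys, and Bmp1, which removes the carboxy-terminal one, rose by 0.38 and 0.68. Loxl1, a lysyl oxidase, rose by 0.53 and 0.83. Lox, the lysyl oxidase that starts cross-linking of fibers, rose by 1.12 in IL-33-deficient kidneys (SE 0.27, limma adjusted p 0.00637), with a WT difference of 0.47 (SE 0.26, adjusted p 0.274).

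Of 17 listed receptors and uptake genes 15 were measured. In WT 3 rose and 2 fell, against 6.97% and 8.22% of all genes. In IL-33-deficient kidneys 5 rose and 1 fell, against 10.6% and 11.2% of all genes. Mmp14, a membrane-bound collagenase, rose by 0.76 in WT (SE 0.19, limma adjusted p 0.015) and by 1.12 in IL-33-deficient kidneys (SE 0.20, adjusted p 0.000905). Ddr1, a receptor kinase for collagen, rose by 0.57 and 0.65, and Itgb1, the shared subunit of collagen-binding integrins, by 0.40 and 0.37. Itga1, which pairs with it, rose by 0.45 in IL-33-deficient kidneys and had a WT difference of 0.29 (adjusted p 0.200). Ctsk, a lysosomal protease that cleaves collagen, fell by 0.36 in WT (SE 0.11, adjusted p 0.0401) and had a difference of 0.09 in IL-33-deficient kidneys (adjusted p 0.686), and Mmp13, a secreted collagenase, fell by 0.31 and 0.18.

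**Figure D4:**
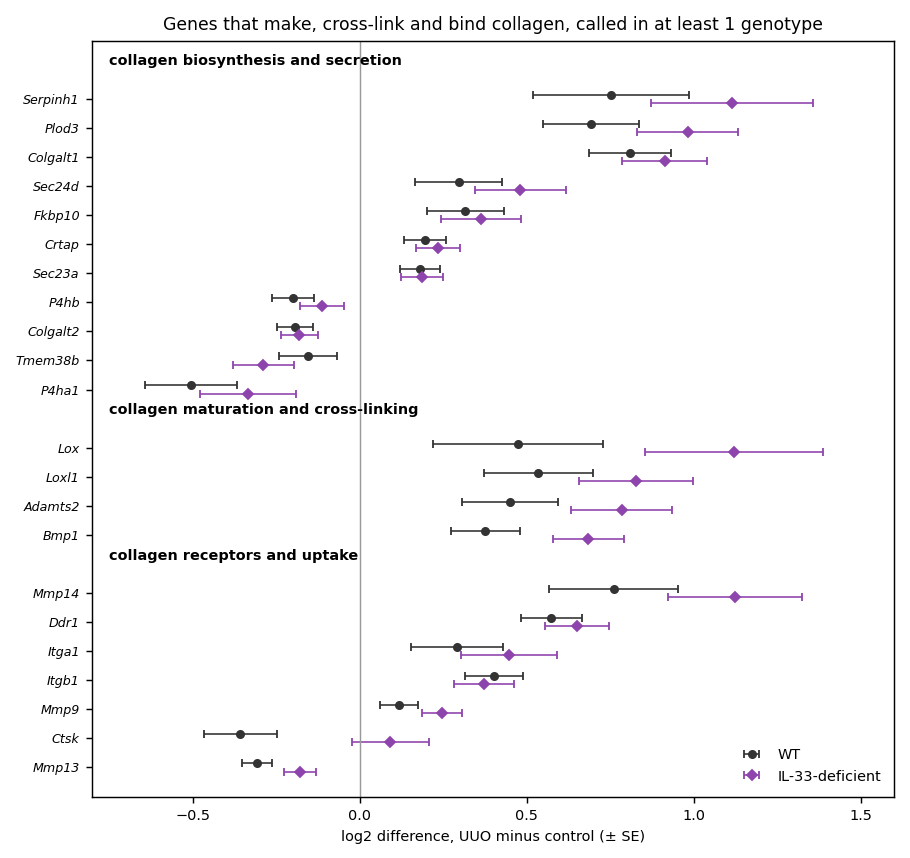
Log2 difference of UUO minus control (± SE) in WT (circles) and IL-33-deficient (diamonds) kidneys for the genes that make, cross-link and bind collagen and passed in at least 1 genotype. Serpinh1, Plod3, Colgalt1, Lox and Mmp14 lie farthest to the right, and P4ha1 lies farthest to the left.

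Markers of the cells known to make collagen were read beside these results. Of the 6 fibroblast and pericyte markers, all measured, Pdgfrb, a growth factor receptor of both, rose by 0.40 in WT (limma adjusted p 0.0217) and by 0.69 in IL-33-deficient kidneys (adjusted p 0.000466), Cspg4, a pericyte marker, fell by 0.20 in WT, and no other passed. Their summed intensity lay between 2234 and 2293 in WT controls, 1931 and 2518 in WT kidneys after UUO, 2332 and 2382 in IL-33-deficient controls and 2094 and 2837 in IL-33-deficient kidneys after UUO, so that the groups overlapped. Of 5 smooth muscle and myofibroblast markers, of which Cnn1 was not above the median gene, Acta2, Tagln and Des rose in both genotypes, while Myh11, a smooth muscle myosin, fell by 0.55 in WT (limma adjusted p 0.00466) and had a difference of -0.15 in IL-33-deficient kidneys (adjusted p 0.482). Acta2, smooth muscle actin, rose by 0.49 in WT and 1.54 in IL-33-deficient kidneys. Endothelial markers gave 0 calls of 5 in WT, and Tek alone fell in IL-33-deficient kidneys, by 0.35. Of 5 measured leukocyte markers Ptprc, Itgam and Cd3e were not above the median gene, Cd68, a macrophage marker, rose by 0.62 and 0.96, and Lyz2, of myeloid cells, rose by 1.501 in IL-33-deficient kidneys, with a WT difference of 0.35 (adjusted p 0.538). Their part in the collagen differences was not tested.

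Whether the genotypes responded differently was tested with the interaction of genotype and UUO. No collagen passed an adjusted p of 0.05 in limma, as was so for 0 of 18132 genes, and the smallest adjusted p of a collagen was 0.973. At an unadjusted p under 0.05 there was 1 of 36, Col1a2, against 4.74% of all genes. The rise of Col1a2 was larger in IL-33-deficient kidneys by 0.55 (SE 0.25, unadjusted limma p 0.0433). For the other 3 fibrillar chains that rose the excess in IL-33-deficient kidneys was 0.46 for Col1a1 (SE 0.42), 0.46 for Col3a1 (SE 0.24) and 0.49 for Col5a1 (SE 0.43), each with an adjusted p of 0.973. For Col4a1 it was 0.34 (SE 0.26), and for Col4a4 the fall was deeper by 0.42 (SE 0.23). These values include WT kidney 3820. Without it the WT rise was 0.32 for Col1a2, 1.32 for Col1a1, 0.93 for Col3a1 and 1.54 for Col5a1, and the WT difference of Col4a4 was -0.87. Each of these lay closer to the IL-33-deficient response, and without kidney 3820 no collagen passed the interaction either. The number of controls, 2 of each genotype, limits this test.

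After UUO, IL-33-deficient kidneys were compared directly with WT kidneys over the 12 obstructed arrays, at the threshold of the study's methods (unadjusted p under 0.05, adjusted p under 0.25 and fold change above 1.3). No collagen passed, and 2 of 18132 genes did (0.0110%, with 1 higher and 1 lower, 0.00552% each). At an adjusted p of 0.05 no collagen passed either, against 0.00552% of all genes. All genes include the targeted gene Il33, which had the lowest difference of them, -2.36. At an unadjusted p under 0.05 there were 8 of 36 collagens, 7 higher and 1 lower in IL-33-deficient kidneys, against 10.3% of all genes (5.55% higher and 4.78% lower). Col1a1, Col1a2, Col3a1, Col5a1, Col4a1, Col4a2 and Col6a1 were the 7 with higher values and Col4a3 the one with lower values. The study had first found Col1a1, Col1a2 and Col3a1 higher in IL-33-deficient kidneys after UUO by quantitative RT-PCR. On arrays of this series it named them again, among the probes that passed this threshold as higher with fewer WT arrays. Over all WT arrays none of them passed here. Both results come from the same series, so the array values here are not independent of its array result. Over the 36 the median difference was 0.01, with 20 above and 16 below 0, next to 0.00262 over all genes.

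The difference of Col1a1 was 0.80 (SE 0.22, limma adjusted p 0.311), a ratio of 1.74, with the 5 IL-33-deficient kidneys between 9.08 and 9.77 and 6 of the 7 WT kidneys between 7.73 and 8.86. The WT kidney 3819, at 9.32, lay within the IL-33-deficient range. The difference was 1.13 within set 1 and 0.57 within set 2, and within each set the groups did not overlap. Col1a2 differed by 0.50 (SE 0.13, adjusted p 0.311), with values of 0.83 in set 1 and 0.27 in set 2. Col3a1 differed by 0.52 (SE 0.13, adjusted p 0.311). Its IL-33-deficient kidneys, at 8.09 to 8.65, were all above the WT kidneys, at 7.25 to 8.04, overall and within each set, where the differences were 0.74 and 0.36. Col5a1 differed by 0.54 (SE 0.23, adjusted p 0.454), by 0.97 in set 1 and by 0.23 in set 2.

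Of the basement membrane collagens Col4a3 differed by -0.48 (SE 0.15, limma adjusted p 0.325). Its IL-33-deficient kidneys, at 8.18 to 8.39, all lay below the WT kidneys, at 8.48 to 9.54, and within each set too, with differences of -0.74 and -0.29. A complete separation with higher values in IL-33-deficient kidneys was found for 0.419% of all genes and with lower values for 0.336%, and among collagens only for Col3a1 and Col4a3. Col4a1 differed by 0.33 (SE 0.14, adjusted p 0.434) and Col4a2 by 0.32 (SE 0.13, adjusted p 0.423), by 0.58 and 0.55 in set 1 and by 0.14 and 0.15 in set 2. Col4a4 differed by -0.21 (SE 0.12, adjusted p 0.581), and Col15a1 by 0.40 (SE 0.20, adjusted p 0.541). Col6a1, the one member of the other collagens, differed by 0.24 (SE 0.11, adjusted p 0.475), by 0.31 in set 1 and 0.20 in set 2.

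**Figure D5:**
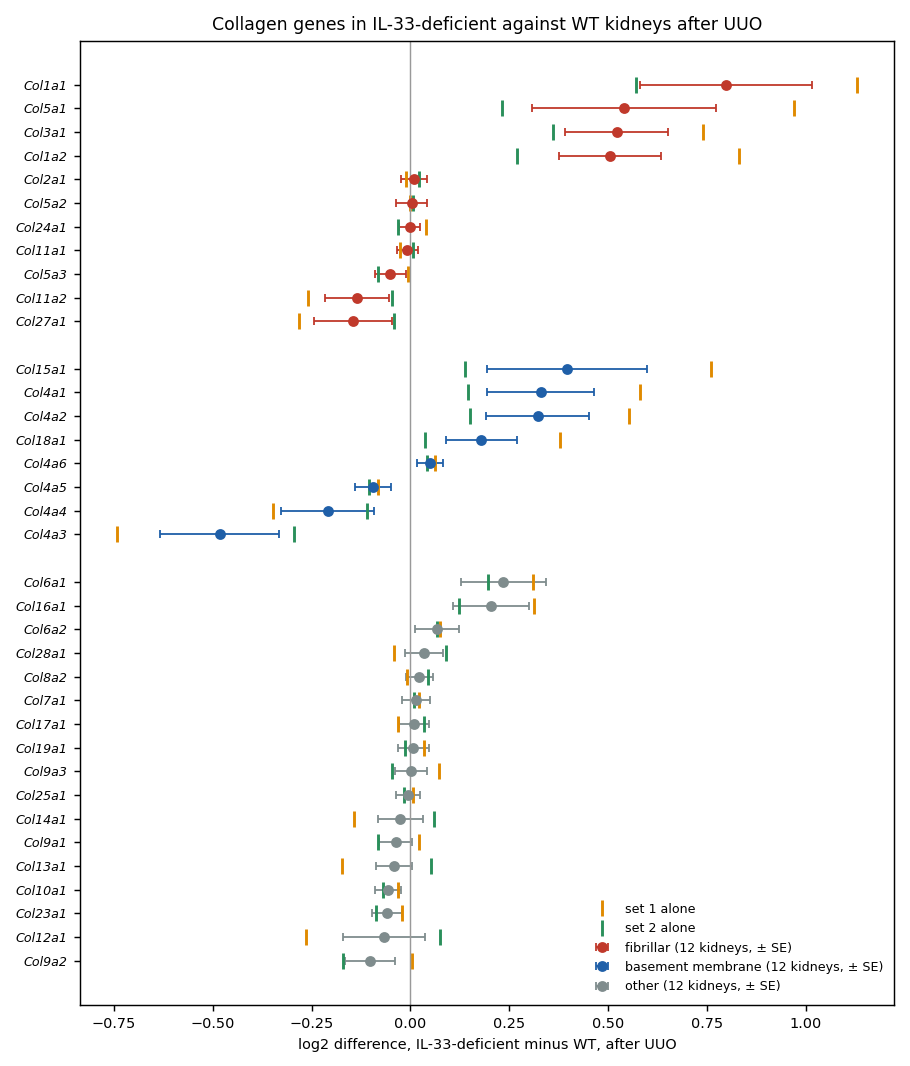
Log2 difference of IL-33-deficient minus WT kidneys after UUO for the 36 collagens by class, over 12 kidneys (points, ± SE) and within each set of mice (ticks). Col1a1 lies farthest to the right at 0.80 and Col4a3 farthest to the left at -0.48, and the ticks of set 1 lie farther from 0 than those of set 2 for both.

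Calls in this comparison depended on the arrays and the model. Without WT kidney 3819 4 collagens passed the threshold of the methods (1.70% of all genes), without 3820 3 did (0.171%) and without the IL-33-deficient kidney 3899 2 did (0.518%). Without kidney 3820 the differences were smaller, at 0.65 for Col1a1, 0.43 for Col1a2, 0.43 for Col3a1 and -0.36 for Col4a3, with limma adjusted p of 0.239, 0.240, 0.230 and 0.230. In the same fit the differences were 0.35 for Col5a1, 0.22 for Col4a1, 0.22 for Col4a2, 0.24 for Col15a1, -0.11 for Col4a4 and 0.20 for Col6a1. The differences in set 1, which holds kidney 3820, were larger in size than those in set 2 for all 8 collagens, and a difference between the sets was not tested.

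The levels of other markers differed alongside. The 5 smooth muscle and myofibroblast markers summed to between 3112 and 3436 in IL-33-deficient kidneys after UUO and between 1890 and 2720 in WT kidneys, with no overlap, and Acta2 was higher by 0.67 (limma adjusted p 0.233), one of the 2 genes that passed. In controls the same sum was between 1472 and 1586 in IL-33-deficient and between 1605 and 2045 in WT kidneys. After UUO the 4 measured proximal tubule markers summed to between 7526 and 16323 in IL-33-deficient and 11751 and 28501 in WT kidneys, and the 4 tubule injury markers to between 24853 and 32714 and between 8391 and 32596. The fibroblast and pericyte sums overlapped, as given above, and each of the 6 markers was higher in IL-33-deficient kidneys, by 0.06 to 0.28 (median 0.13). Of these Pdgfrb, at 0.28, and Cspg4, at 0.12, had an unadjusted p under 0.05, and none passed (limma adjusted p 0.320 and 0.385). The part of each in the differences of the collagens was not tested.

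None of the listed genes of collagen synthesis, cross-linking, receptors and uptake passed between the genotypes after UUO. Higher values at an unadjusted p under 0.05 were seen for 4 of 12 genes of maturation and cross-linking, among them Lox at 0.47 (limma adjusted p 0.446), for 2 of 21 genes of biosynthesis and for 1 of 15 receptor and uptake genes, against 5.55% of all genes. Lower values were seen for 1 of the 21, Tmem38b at -0.15, an ion channel of the endoplasmic reticulum, against 4.78% of all genes.

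In control kidneys the genotypes were compared over 2 arrays each. No collagen passed in limma, none had an unadjusted p under 0.05 (3.66% of all genes did), and the smallest unadjusted p was 0.0725. The differences of the 36 lay between -0.22 and 0.33, with a median of -0.01. The widest was that of Col1a1, whose IL-33-deficient controls, at 7.44 and 8.13, lay farther apart than the means of the genotypes.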

How the data were processed

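RNA of each kidney was amplified, labeled and hybridized, and the arrays were read into R by the authors through beadarray. The deposited values are linear intensities, 1 per gene symbol, for 18132 genes on 16 arrays. The submitters' processing notes name BeadStudio 2, and the authors' background correction, normalization and rule for joining probes are not given in the sources used here. Array medians lay between 132 and 133, so the values had been made alike between arrays. The table holds no detection p-values or probe names, and no gene was filtered out for a low value.

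Here the deposited intensities of the 16 arrays were quantile-normalized and taken to log2. Linear models were fitted in limma 3.58.1 (lmFit, eBayes; R 4.3.3), and p-values were adjusted by Benjamini-Hochberg across the 18132 genes. Responses to UUO, their interaction with genotype and the comparison of controls came from one model of 4 groups, and calls were made at an adjusted p of 0.05. The genotypes after UUO were compared over the 12 obstructed arrays at the threshold of the authors' methods. Their contrast used fewer WT arrays, and since the labels do not tell which, all 7 were used. Groups came from the sample labels, and arrays are named by the number in their label. P-values weigh a group difference against the spread between kidneys within groups, pooled over the groups of a model and moderated by eBayes. Precision is set by the number of arrays.

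The members and all gene lists were chosen with earlier results of these data known. Levels in each group are given for Col1a1, Col1a2 and Col3a1 and for members called in a comparison. They are also given for members with an unadjusted p under 0.05 between genotypes after UUO. For obstructed WT kidneys these are the lowest, median and highest level, and for the other groups the level of every kidney. Of each other list the counts and up to 6 called genes with the largest change are named (of the marker lists, those read beside a result), and 1 marker list is not reported here. Promoters were matched by symbol. The fits were tested on simulated data. Tables and plots were made in Python 3.11.15 with numpy 2.4.6, pandas 2.3.3 and matplotlib 3.10.9. Alternatives were other scalings, subtraction of the lowest intensity, other variance models, brighter genes alone, fewer groups, single sets, set as a block and each array left out.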

Additional observations from a re-analysis of the deposited data

Results flagged for a closer look

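Within the obstructed kidneys of each genotype, single values far from the rest of their group were sought in 32 groups of values. These were of Il33 and the 15 collagens whose levels are given in each group. In 7 of the 32 the most extreme kidney was farther from the next one than Dixon's 95% critical value allows, where chance gives about 1 in 20 per group. The genes were read in the same kidneys, so the 32 groups are not independent and the 7 are not separate events. For Il33 this was WT kidney 3818, at 8.39 against 9.10 to 9.57 in the other WT kidneys. The remaining 6 were all WT kidney 3820. Its level was 7.51 for Col15a1 (others 8.45 to 8.93), 10.17 for Col18a1 (10.62 to 10.73) and 7.95 for Col5a1 (8.93 to 9.61), all low. It was 7.67 for Col27a1 (6.96 to 7.20), 9.54 for Col4a3 (8.48 to 8.91) and 8.94 for Col4a4 (8.06 to 8.40), all high. For each of these collagens kidney 3820 lay on the side of the controls.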

How the results depend on the processing

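With 2 controls of each genotype, the response calls rest on few arrays. In WT kidneys the count of collagens called after UUO ranged from 2 to 13 with each array left out in turn, was 0 with the obstructed kidneys of set 1 alone, and stayed between 7 and 13 under the other alternatives, next to 10. In IL-33-deficient kidneys it stayed between 10 and 13 throughout. The interaction count was 0 with each array left out and 1 at an unadjusted p under 0.05. Between genotypes after UUO the count, 0 at the threshold of the methods, was 4 with array weights (0.441% of all genes), 4 among brighter genes only (1.85%), 4 with 16 arrays in 4 groups (0.700%), 1 in set 2 alone (0.447%), 1 with the 5 IL-33-deficient against the 4 WT arrays of set 2 (1.25%), 8 at an unadjusted p under 0.05 (10.3%), and 0 to 4 with each array left out. It was 0 in set 1 alone and with set as a block. Each 4 was Col1a1, Col1a2, Col3a1 and Col4a3, and the 1 was Col1a1. In controls it was 0 throughout. The near-zero WT difference of Col6a1 was -0.0117 with array weights and -0.0763 with the obstructed kidneys of set 2 alone, and ranged from -0.0706 to 0.0879 with each array left out, below 0 without 3811, 3818 or 3819. No other named difference changed direction. No paired analysis was possible because the labels give each kidney a number of its own, shared with no other group. The 17 collagens not above the median gene lie close to background, where differences are compressed.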
